A study of Mus musculus with 83 samples.

Results

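The genes described here are 10 genes of cellular senescence and of the p53 response, Cdkn2a, Cdkn2b, Cdkn2c, Cdkn1a, Cdkn1b, Trp53, Mdm2, Ccng1, Gdf15 and Eda2r. They were chosen by name and were found by symbol among the 37764 genes of a table of RNA-seq read counts. The table covers the colon of 83 male C57BL/6J/Ukj mice, aged 3 months (16 mice), 9 months (16), 15 months (16), 24 months (17) or 28 months (18). The labels name no engineered allele and no treatment. The study states that its samples arose within a larger project on multiple variables. Each library held polyadenylated RNA of 1 mouse, read with its strand, and libraries were prepared in 3 batches that each held between 4 and 7 mice of every age. Of the 10 genes, 9 had enough counts to be tested with the 18325 genes that passed a filter on low counts. The exception was Cdkn2a, with at most 18 counts in any mouse.

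Senescence is a lasting exit from the cell cycle that follows damage, short telomeres or oncogene activity. The INK4 proteins bind the kinases CDK4 and CDK6, and the CIP/KIP proteins bind cyclin and CDK complexes, so that both families hold back entry into S phase. The transcription factor p53 is kept low by the ubiquitin ligase Mdm2, and when stabilized by stress it raises the genes for the cell cycle inhibitor p21, for Mdm2 itself and for many others. In the colon, the epithelium is renewed throughout life from dividing cells in the crypts, and p16INK4a, encoded by Cdkn2a, is widely used as a mark of aged tissue.

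The promoters show how differently the genes are placed. RefSeq windows from 250 bases before to 50 bases after a transcript start (GRCm38.p6) were found for all 10 genes, 14 windows in all. Sequences fitting the p53 response element were looked for, that is, a pair of half-sites of 10 bases with at most 13 bases between them and at most 2 mismatches in all. They were present in 2 of the 14 windows, one of Cdkn1a and the one of Ccng1, and in 4.09% of 32851 windows of all genes. In both, the half-sites touch, with 1 mismatch. They begin 51 bases before the upstream start of Cdkn1a and 195 bases before the start of Ccng1. The window of the downstream Cdkn1a start (chr17:29093519-29093818) held no such sequence. The 2 windows that did are shown with the half-sites in capitals. They lie at chr17:29090729-29091028 on the plus strand and chr11:40755237-40755536 on the minus strand.
Cdkn1a: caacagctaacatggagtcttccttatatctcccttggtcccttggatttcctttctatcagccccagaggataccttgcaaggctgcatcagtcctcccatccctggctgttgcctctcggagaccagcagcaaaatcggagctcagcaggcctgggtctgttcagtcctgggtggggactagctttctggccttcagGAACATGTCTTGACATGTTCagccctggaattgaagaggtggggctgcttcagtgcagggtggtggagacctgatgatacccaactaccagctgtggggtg
Ccng1: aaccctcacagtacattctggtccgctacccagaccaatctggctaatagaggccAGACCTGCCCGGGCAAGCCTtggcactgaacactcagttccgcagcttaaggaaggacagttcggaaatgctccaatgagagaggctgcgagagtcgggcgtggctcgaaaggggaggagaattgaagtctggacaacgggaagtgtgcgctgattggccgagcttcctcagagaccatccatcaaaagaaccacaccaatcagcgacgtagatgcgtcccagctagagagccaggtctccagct

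The windows of the Cdkn2a and Cdkn2b genes are shown because these neighbours on chromosome 4 moved in opposite directions with age. Cdkn2a has a start for p16INK4a and another, farther upstream, for p19ARF, and the counts of the gene do not separate these transcripts. The windows lie on the minus strand at chr4:89282143-89282442, chr4:89294570-89294869 and chr4:89310983-89311282. Capitals mark GGGCGG, the core of the GC box, found on the strand shown. Searched on both strands, GGGCGG was present in 8 of the 14 windows and in 35.7% of all windows, and TATAAA in 2 of the 14 and in 13.6% of all windows.
Cdkn2a, downstream start: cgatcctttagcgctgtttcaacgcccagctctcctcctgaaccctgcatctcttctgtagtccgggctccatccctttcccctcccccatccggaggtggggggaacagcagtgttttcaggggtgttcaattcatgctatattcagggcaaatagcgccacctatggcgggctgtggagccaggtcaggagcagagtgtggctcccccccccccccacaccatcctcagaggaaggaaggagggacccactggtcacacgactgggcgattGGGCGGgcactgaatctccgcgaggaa
Cdkn2a, upstream start: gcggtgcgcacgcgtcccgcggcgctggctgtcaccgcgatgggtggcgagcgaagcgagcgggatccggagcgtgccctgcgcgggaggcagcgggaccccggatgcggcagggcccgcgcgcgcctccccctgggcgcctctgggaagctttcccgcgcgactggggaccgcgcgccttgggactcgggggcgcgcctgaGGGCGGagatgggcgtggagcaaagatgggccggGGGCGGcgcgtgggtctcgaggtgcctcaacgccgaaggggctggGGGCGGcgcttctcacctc
Cdkn2b: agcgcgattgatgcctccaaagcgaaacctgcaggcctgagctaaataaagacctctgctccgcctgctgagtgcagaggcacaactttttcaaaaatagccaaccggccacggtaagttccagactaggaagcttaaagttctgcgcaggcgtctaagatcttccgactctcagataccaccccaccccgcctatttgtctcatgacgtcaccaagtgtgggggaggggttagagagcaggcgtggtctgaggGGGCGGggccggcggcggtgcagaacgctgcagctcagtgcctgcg

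The libraries held between 23026370 and 75838290 counts, with a median of 35495123. Every mouse counts as 1 replicate, since no pair among the 649 pairs of equal age was alike within sampling noise. The colon epithelium was evident in the levels of its markers, and the summed level of 5 of them (Cdh1, Epcam, Krt8, Krt18 and Vil1) was between 6324 and 8852 CPM (counts relative to the TMM-normalized total of each mouse) in the mice of 3 and 28 months. The library of replicate 13 at 28 months stood apart. Its median correlation with mice of its own age was 0.977, against a median of 0.988 over all mice, and it had the lowest level of Cdkn2b, Cdkn2c and Gdf15 and the highest level of Mdm2 of all 83 mice. Values without it are given where they matter.

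Per length of the gene, the 10 genes covered a wide range of levels. In TPM (counts divided by the merged exon length and scaled to the sum of each mouse), the median over 83 mice was 189 for Cdkn1a, 91.2 for Cdkn2b, 87.8 for Ccng1, 80.8 for Cdkn1b, 47.0 for Trp53, 30.9 for Mdm2, 18.2 for Cdkn2c, 2.89 for Gdf15, 1.33 for Eda2r and 0.308 for Cdkn2a. Most steps in this order held within nearly every mouse, with Cdkn1a above Cdkn2b in 83 of 83 and Gdf15 above Eda2r in 81 of 83. Cdkn2b, Ccng1 and Cdkn1b were close together. Cdkn2b lay above Ccng1 in 52 mice and Ccng1 above Cdkn1b in 64, and the differences between their medians were smaller than the SD of Cdkn2b over mice, 16.8 TPM. At 28 months these 3 genes had means of 84.2 ± 15.2, 84.7 ± 8.68 and 82.9 ± 5.68 TPM (SD, n = 18).

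**Figure D1:**
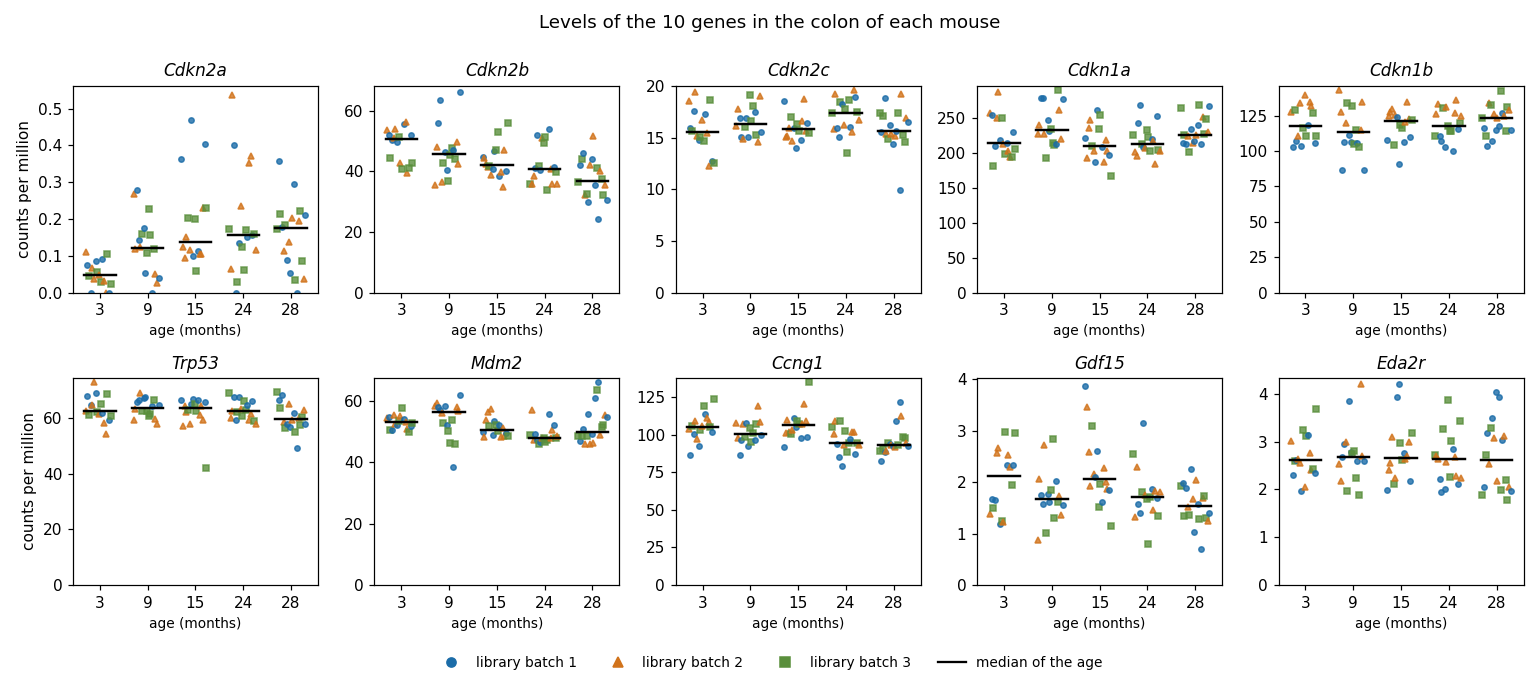
Level of each of the 10 genes in CPM (vertical axis, from 0) in every mouse by age in months, with the library batch as colour and shape and the median of each age as a line. Cdkn2a reaches at most 0.11 at 3 months and spreads upwards later, the Cdkn2b medians step down from 50.7 to 37.0, and the other genes overlap broadly between ages.

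Between 3 and 28 months, 4 of the 9 genes tested changed, and all 4 were lower at 28 months (edgeR's quasi-likelihood test with library batch as a term, Benjamini-Hochberg adjusted p below 0.1 over 18325 genes). Of all genes tested, 25.9% were called lower and 23.5% higher in this comparison. The genes called lower were Cdkn2b, Gdf15, Ccng1 and Trp53. The Trp53 call lay at the threshold and was lost in 8 of 9 alternative analyses. DESeq2 called 3 of the 9 (49.7% of all genes). With epithelial and smooth muscle marker scores as covariates, edgeR called 2 (45.4%). Cdkn2a, outside the 9, was higher at 28 months in a fit without the filter, given below. The median log2 change of the 9 genes was -0.024, beside -0.0087 for all genes, and their median absolute log2 change was 0.058, beside 0.14 for all genes. In bulk tissue, fewer cells of a type and less RNA per cell cannot be told apart.

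Cdkn2b encodes p15INK4b, an inhibitor of CDK4 and CDK6 that responds to TGF-beta. At 3 months its level ranged from 39.4 to 56.4 CPM with a median of 50.7, and at 28 months from 24.3 to 51.7 with a median of 37.0. The medians of the ages between were 45.9, 42.1 and 40.7 CPM, each below the one before. At 28 months, 17 of 18 mice lay below the 3-month median and 10 below the lowest 3-month mouse, and the ranges overlapped. The log2 change was -0.37 ± 0.075 (SE, adjusted p = 4.33e-05), a level 22.6% lower. Within the batches it was -0.52, -0.29 and -0.24. Without replicate 13 at 28 months it was -0.34 (adjusted p = 8.85e-05). No step between neighbouring ages passed the threshold for Cdkn2b, the largest being -0.17 between 24 and 28 months (edgeR adjusted p = 0.152). The slope over all ages was -0.013 log2 units a month (SE 0.0026, edgeR adjusted p = 2.11e-05), or -0.33 over 25 months.

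Cdkn2a, the gene of p16INK4a and p19ARF, lies next to Cdkn2b at chr4:89274471-89294653, and Cdkn2b at chr4:89306299-89311039. It was counted at a very low level, with median counts per mouse of 2, 5, 4.5, 6 and 7 in order of age. In CPM, the mice of 3 months ranged from 0 to 0.11 with a median of 0.0465, and those of 28 months from 0 to 0.359 with a median of 0.176. At the ages between, the medians were 0.121, 0.137 and 0.157 CPM, and the highest value of all, 0.536, belonged to a 24-month mouse. The highest 3-month mouse was exceeded by 10 of 16 mice aged 9 months, 11 of 16 aged 15 months, 13 of 17 aged 24 months and 12 of 18 aged 28 months. A count of 0 was found in 3 of the youngest mice and in 1 mouse of each other age except 15 months. In these 6 mice it allows a level of up to 0.0662 to 0.125 CPM, the value of 3 counts.

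Because Cdkn2a did not pass the filter, its test comes from the same model fitted to all 37764 genes without a filter. There it rose between 3 and 28 months by 1.65 ± 0.385 on the log2 scale (SE, edgeR adjusted p = 0.000616), in a comparison with 12.8% of genes called higher. The mean level of the 28-month mice was 3.07 times that of the 3-month mice, 0.154 ± 0.0945 CPM (SD, n = 18) and 0.0503 ± 0.0365 CPM (SD, n = 16). A permutation test of this difference, with mice exchanged within batches, gave p = 0.00036 (two-sided, 100000 resamples). The ratio stayed between 2.83 and 3.33 when any 1 mouse was left out. In the 3 batches the mean rose from 0.0507 to 0.169 CPM, from 0.0492 to 0.136 and from 0.0512 to 0.152. Summed over the mice of an age, 28 counts at 3 months gave 0.0482 CPM (95% exact Poisson interval 0.032 to 0.0696) and 111 counts at 28 months gave 0.164 CPM (0.135 to 0.197). These intervals and limits cover counting error only.

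In the fit over all batches, the largest log2 step of Cdkn2a came early. Between 3 and 9 months it rose by 1.34 ± 0.409 (SE, edgeR adjusted p = 0.0815 without the filter, where 1.11% of genes were called higher). The later steps of 0.55 (9 to 15 months), 0.0029 (15 to 24 months) and -0.24 (24 to 28 months) were smaller, and none passed the threshold (edgeR adjusted p between 0.752 and 1). Over the 5 ages it differed (edgeR adjusted p = 0.000336, with 27.4% of genes called without the filter) and departed from a straight line in age (edgeR adjusted p = 0.0626, 5.93% called). Its slope was 0.046 log2 units a month (SE 0.0127, edgeR adjusted p = 0.00371, 14.9% called higher). Cdkn2a was higher and Cdkn2b lower at 28 than at 3 months in each of the 3 batches. Mean Cdkn2a at 3, 9, 15 and 24 months was 0.0507, 0.115, 0.29 and 0.169 CPM in batch 1. In batch 2 it was 0.0492, 0.117, 0.1315 and 0.28, and in batch 3 0.0512, 0.154, 0.172 and 0.1195. The largest rise in CPM thus came from 9 to 15 months in batch 1, from 15 to 24 in batch 2 and from 3 to 9 in batch 3. The steps were not tested against each other.

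Of the 10 genes, the other 3 CDK inhibitors, Cdkn1a, Cdkn1b and Cdkn2c, did not pass the threshold between 3 and 28 months. Cdkn1a, which encodes p21, the main p53 target among them, had a median of 213 CPM at 3 months (range 181 to 286) and 226 at 28 months (200.6 to 268). The ranges overlapped almost completely, and the log2 change was 0.058 (95% interval -0.049 to 0.17, edgeR adjusted p = 0.402). Its within-batch changes were 0.021, -0.03 and 0.22. Over the 5 ages Cdkn1a did differ (edgeR adjusted p = 0.0611), with its highest median, 232 CPM, at 9 months and its lowest, 209, at 15 months. It was the only one of the 9 genes called for a departure from a straight line (edgeR adjusted p = 0.0915, with 16.2% of genes called), and this call was lost without a filter on low counts (edgeR adjusted p = 0.126). The step from 9 to 15 months was -0.16 (edgeR adjusted p = 0.275).

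Cdkn1b, which encodes p27, had a median of 117 CPM at 3 months (range 103 to 139) and 123 at 28 months (103 to 143). Its log2 change was 0.054 (95% interval -0.02 to 0.13, edgeR adjusted p = 0.249). Cdkn2c, which encodes p18INK4c, had a median of 15.6 CPM at both 3 months (range 12.2 to 19.4) and 28 months (9.94 to 19.2). Its log2 change was 0.013 (95% interval -0.096 to 0.12, edgeR adjusted p = 0.872). Of the 28-month mice, 9 of 18 lay below its 3-month median.

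**Figure D2:**
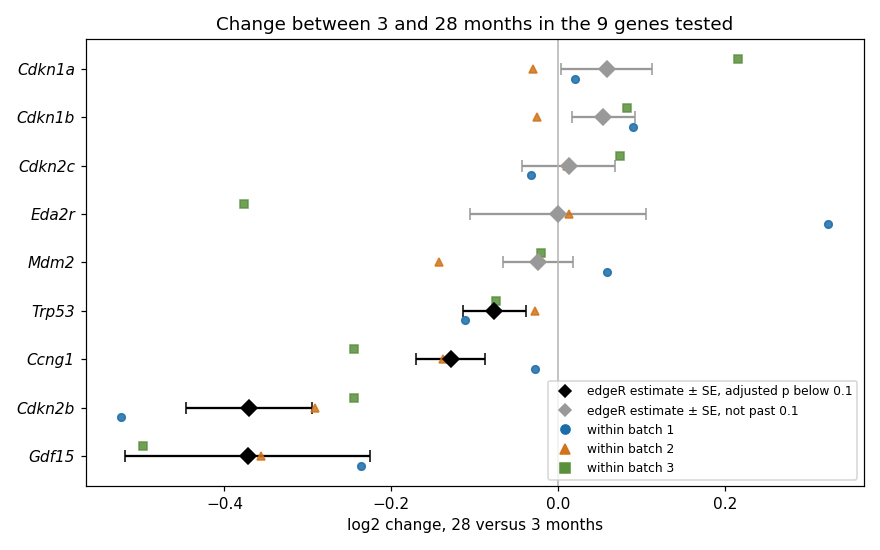
Log2 change between 3 and 28 months (horizontal axis) of the 9 genes tested, as the edgeR estimate ± SE (diamonds, black where the adjusted p was below 0.1) and within each library batch (circles, triangles and squares). Cdkn2b, Gdf15, Ccng1 and Trp53 lie below 0 in every batch, while Cdkn2c, Cdkn1a, Cdkn1b, Mdm2 and Eda2r each have batches on both sides of 0.

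Trp53 encodes p53. Its level ranged from 54.2 to 73.0 CPM at 3 months with a median of 62.5, and from 49.3 to 69.5 at 28 months with a median of 59.6. The medians at 9, 15 and 24 months were 63.8, 63.7 and 62.4 CPM. At 28 months, 12 of 18 mice lay below the 3-month median, and the ranges overlapped. The log2 change was -0.076 ± 0.037 (SE, edgeR adjusted p = 0.0922), a level 5.14% lower. This call lay at the threshold and was lost in 8 of 9 alternative analyses of all mice or of these ages, with edgeR or DESeq2 adjusted p between 0.115 and 0.47 in the 7 that kept the threshold. It was lost in DESeq2 (log2 change -0.068, adjusted p = 0.123) and without replicate 13 at 28 months (log2 change -0.06, edgeR adjusted p = 0.172), and held in 18 of the 34 fits that each left out 1 mouse of 3 or 28 months. With epithelial and smooth muscle marker scores as covariates it was -0.028 (edgeR adjusted p = 0.47). Over the 5 ages Trp53 did not pass the threshold (edgeR adjusted p = 0.272).

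Mdm2, the ligase that marks p53 for degradation and is itself a p53 target, had a median of 53 CPM at 3 months (range 49.9 to 57.7) and 50.02 at 28 months (45.9 to 66.2). Its log2 change was -0.024 (95% interval -0.11 to 0.057, edgeR adjusted p = 0.668). Without replicate 13 at 28 months it was -0.044 (edgeR adjusted p = 0.379). The 28-month mice lay on both sides of the young range, with 9 of 18 below the lowest 3-month mouse and 3 above the highest. The highest of all was replicate 13, and a change in the spread of Mdm2 between mice was not called (limma adjusted p = 0.593). At 24 months, 13 of 17 mice lay below the lowest 3-month mouse, and the median was 48.0 CPM. Mdm2 differed over the 5 ages (edgeR adjusted p = 0.0493), and its slope of -0.003 log2 units a month passed the threshold (edgeR adjusted p = 0.088) but was lost in 7 of 8 alternatives.

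Ccng1 encodes cyclin G1, a direct p53 target that recruits a phosphatase to Mdm2. Its level ranged from 86.7 to 124 CPM at 3 months with a median of 105, and from 82.4 to 122 at 28 months with a median of 93.3. The medians at 9, 15 and 24 months were 100.3, 106 and 94.7 CPM. At 24 months 15 of 17 mice and at 28 months 15 of 18 mice lay below the 3-month median, and the ranges overlapped. The change between 3 and 28 months was -0.13 ± 0.041 (SE, edgeR adjusted p = 0.00887), with -0.028, -0.14 and -0.24 within batches. It was the only one of the 9 genes to pass the threshold between neighbouring ages, with -0.15 ± 0.042 between 15 and 24 months (SE, edgeR adjusted p = 0.0142). In that comparison 7.24% of genes were called lower, and the within-batch changes of Ccng1 were -0.19, -0.11 and -0.19. Without replicate 13 at 28 months, which had the highest Ccng1 level of its age, the change between 3 and 28 months was -0.16 (edgeR adjusted p = 0.00063).

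Gdf15 encodes a secreted stress hormone of the TGF-beta family that acts through the receptor Gfral and the co-receptor Ret. It was low, between 17 and 140 counts per mouse. Its level ranged from 1.18 to 2.97 CPM at 3 months with a median of 2.12, and from 0.707 to 2.26 at 28 months with a median of 1.54. At 28 months 17 of 18 mice lay below the 3-month median, and 8 of 16 mice at 3 months lay above the highest 28-month mouse. The log2 change was -0.37 ± 0.147 (SE, edgeR adjusted p = 0.0336), with -0.24, -0.36 and -0.50 within batches. Without replicate 13 at 28 months it was -0.33 (edgeR adjusted p = 0.0542). With epithelial and smooth muscle scores as covariates it was -0.21 and no longer passed the threshold (edgeR adjusted p = 0.244). Its medians at the 3 ages between were 1.68, 2.05 and 1.72 CPM, but a departure from a straight line was not called (edgeR adjusted p = 0.122). Neither the step from 9 to 15 months (edgeR adjusted p = 0.4) nor that from 15 to 24 months (0.148) passed the threshold.

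Eda2r encodes a receptor of the ligand ectodysplasin A2 and is a p53 target in several tissues. Its median was 2.61 CPM at 3 months (range 1.96 to 3.68) and 2.63 at 28 months (1.78 to 4.03), and 2.69, 2.66 and 2.65 CPM at the ages between. Here too, 9 of 18 mice at 28 months lay below the 3-month median. The log2 change was -8.8e-05 (95% interval -0.21 to 0.21, edgeR adjusted p = 1). The batches went different ways, with 0.32, 0.014 and -0.38. Over the 5 ages the adjusted p was 0.962 in edgeR, the highest among the 10 genes.

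Over the 5 ages together, 5 of the 9 genes differed, Cdkn2b, Ccng1, Gdf15, Mdm2 and Cdkn1a, while 54.9% of all genes did. A straight slope on age was called for 4, Cdkn2b, Ccng1, Gdf15 and Mdm2, all downward, while 53.2% of all genes had a called slope and 27.4% a downward one. The slope of Gdf15 (-0.011 log2 units a month, edgeR adjusted p = 0.0738) was lost in 4 of 8 alternatives and was -0.0052 with epithelial and smooth muscle scores as covariates (edgeR adjusted p = 0.447). None of the 9 was called in the step from 3 to 9 months, where 8.69% of genes were, from 9 to 15 months (0.431%) or from 24 to 28 months (11.7%). From 15 to 24 months 13.5% of all genes were called in either direction. At an unadjusted p below 0.05, edgeR counted 0 of the 9 between 3 and 9 months (19.5% of all genes), 2 in the next step (9.18%) and 2 in the last (22%). DESeq2 at the adjusted threshold called none of the 9 there, with 9.15%, 0.756% and 12.4% of all genes called.

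The spread between mice of the same age did not change detectably for any of the 9 genes between 3 and 28 months. It was compared by limma on absolute deviations of log2 CPM from the median of each age and batch, which called 5 of 18325 genes (0.0273%). The count over all genes depended on that choice, since deviations from the mean called 1556 genes (8.49%), with 0 of the 9 called either way. The lowest unadjusted p was that of Cdkn2b (limma, difference 0.12 ± 0.048 SE, p = 0.0192, adjusted p = 0.419), whose SD of log2 CPM after age and batch was 0.17 at 3 months and 0.28 at 28 months, or 0.24 at 28 months without replicate 13. Gdf15 had the highest SD of the 9 genes at each age, between 0.38 and 0.46, except that without replicate 13 its SD at 28 months was 0.29, below the 0.38 of Eda2r. In comparison, the median gene had 0.20 at both 3 and 28 months.

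From mouse to mouse, some pairs of the 9 genes varied together and others in opposite ways. Over 83 mice, on log2 CPM with the library batch removed, the 36 pairs had a median Pearson r of 0.028 and a range from -0.42 to 0.51, with 6 pairs above 0.3 and 3 below -0.3. The mice share their libraries and ages, and these values are descriptions. The highest was that of Ccng1 and Eda2r, the lowest that of Cdkn2b and Cdkn1b. Of all 18324 other genes, Ccng1 had rank 3 in likeness to Eda2r, before and after removal of age (r = 0.51 and 0.54). Trp53 had r = 0.31 with Cdkn1a and -0.32 with Ccng1, both known targets of its protein, but by rank the values were smaller (Spearman's rho 0.21 and -0.12). Replicate 16 at 15 months had both the lowest Trp53 level, 42.1 CPM, and the highest Ccng1 level, 135 CPM, of all mice. Mdm2 had r = 0.31 with Cdkn1a and 0.33 with Ccng1.

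**Figure D3:**
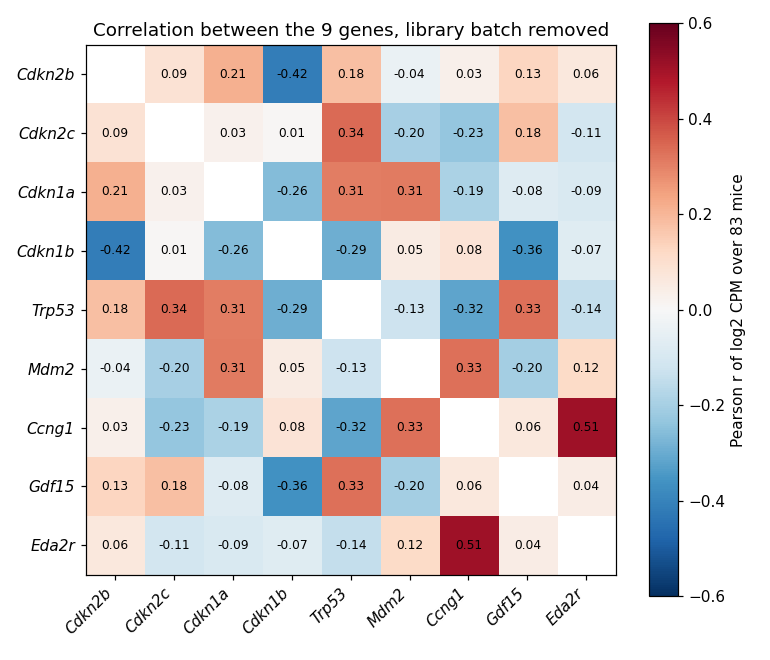
Pearson's r of log2 CPM between each pair of the 9 genes over 83 mice after removal of library batch (red positive, blue negative, diagonal empty). Only Ccng1 with Eda2r exceeds 0.5, and the lowest values of Cdkn1b are those with Cdkn2b, Gdf15 and Trp53.

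For each of the 9 genes, the 3 genes with the highest r were found over the 83 mice among genes with a mean of at least 1 CPM, leaving out the 10 genes themselves. Ccng1 was most like Yme1l1 (r = 0.83), Dcun1d1 (0.83) and Mob4 (0.80), and Trp53 most like Lmnb1 (0.78), the gene of lamin B1, Pelp1 (0.78) and Tcof1 (0.75). Cdkn2c was most like Tk1 (0.77), the thymidine kinase of S phase, Bckdk (0.70) and the condensin subunit Ncapd2 (0.67). Gdf15 was most like Tubg1 (0.77) and Tuba4a (0.75), and Cdkn2b most like Zfp511 (0.72), Pced1a (0.68) and Acp5 (0.67). For Mdm2 they were Slc38a2 (0.72), Rnf2 (0.70) and Zbtb18 (0.68), for Cdkn1a Pmp22, Pacsin2 and Eps8l3 (0.67 each), and for Cdkn1b Jade1 (0.66), Pcmtd2 (0.66) and Fcho2 (0.64). Eda2r had the lowest such values, with Gm37795 (0.54), Zfp12 (0.51) and Ankrd26 (0.50). These choices depended on the measure. By Spearman's rho only 1 of the 3 genes was the same for Cdkn2b, Cdkn2c, Trp53, Mdm2 and Gdf15, and after removal of age only 1 of 3 for Cdkn2b, Cdkn1b and Gdf15.

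Of 26 other p53 targets tested between 3 and 28 months, 7 were higher and 7 lower, beside 23.5% and 25.9% of all genes. Their median log2 change was 0.036. Among those higher were Bbc3, the gene of the apoptosis protein PUMA (0.36 ± 0.12 SE, edgeR adjusted p = 0.0115), Sesn1 (0.33 ± 0.061, adjusted p = 1.04e-05) and the DNA repair gene Ddb2 (0.27 ± 0.041, adjusted p = 8.32e-08). Among those lower were the nuclease gene Aen (-0.32 ± 0.08, adjusted p = 0.000778), Gadd45a (-0.27 ± 0.08, adjusted p = 0.00483) and Sesn2 (-0.21 ± 0.084, adjusted p = 0.0398). With epithelial and smooth muscle scores as covariates, Sesn2 was -0.12 and no longer passed the threshold (edgeR adjusted p = 0.269). Of 16 regulators of p53 tested, beside those same shares, 1 was higher, the ribosomal gene Rpl5 (0.087 ± 0.034, adjusted p = 0.0342), and 4 were lower. The latter included the checkpoint kinases Chek2 (-0.21 ± 0.046, adjusted p = 0.000114) and Chek1 (-0.18 ± 0.075, adjusted p = 0.0448) and Rps27l (-0.16 ± 0.042, adjusted p = 0.00109). With the covariates, Rpl5 (edgeR adjusted p = 0.103) and Chek1 (0.153) lost their calls, and with only the mice of these ages Chek1 did too (0.101). Trp63 had at most 6 counts in a mouse and was not tested.

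Of 20 genes tested that comprise 2 other CDK inhibitors, Cdkn1c and Cdkn2d, and the partners of CDK inhibitors, 11 were lower and 1 was higher, with a median of -0.13, where 25.9% of all genes were lower and 23.5% higher. The largest falls were those of Cdkn1c, which encodes the CIP/KIP protein p57 (-0.42 ± 0.072, edgeR adjusted p = 1.75e-06), Skp2, which directs p27 to degradation (-0.38 ± 0.067, adjusted p = 4.36e-06), and the cyclin gene Ccnd3 (-0.37 ± 0.058, adjusted p = 2.31e-07). The gene higher was Rbl2, which encodes the pocket protein p130 (0.23 ± 0.045, adjusted p = 2.36e-05). Of the proliferation genes, 10 of 15 were lower and none was higher, beside the same shares of all genes, with a median of -0.16. They included Bub1 (-0.38 ± 0.071, adjusted p = 1.1e-05), Top2a (-0.30 ± 0.071, adjusted p = 0.000418) and Tyms (-0.25 ± 0.057, adjusted p = 0.000246). The summed level of the 15 genes ranged from 577 to 1270 CPM at 3 months and from 676 to 984 at 28 months.

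Around the Cdkn2 locus, the flanking genes fell, as did Cdkn2b. Mtap, beyond Cdkn2a, changed by -0.38 ± 0.074 (edgeR adjusted p = 1.61e-05), and Dmrta1, beyond Cdkn2b, by -0.65 ± 0.2 (adjusted p = 0.00592) as its mean went from 0.74 ± 0.307 CPM (SD, n = 16) to 0.46 ± 0.265 (SD, n = 18). Among 15 regulators and neighbours of the locus, 8 were lower and 2 higher, with a median of -0.12, beside 25.9% and 23.5% of all genes. The 2 higher were Cbx7 (0.52 ± 0.056, adjusted p = 1.87e-12) and Bmi1 (0.23 ± 0.054, adjusted p = 0.000393), Polycomb proteins known to hold down Cdkn2a. Cbx7 rose from 39.0 ± 5.14 CPM (SD, n = 16) to 56.5 ± 5.93 (SD, n = 18). Its paralogue Cbx8 fell (-0.29 ± 0.058, adjusted p = 4.26e-05).

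Of 19 secreted factors of senescent cells that were tested, 7 were higher and 1 was lower, with a median of 0.097, beside 23.5% and 25.9% of all genes. The largest rise was that of Mmp12, the macrophage elastase, from 0.813 ± 0.251 CPM (SD, n = 16) to 6.57 ± 3.16 (SD, n = 18), with a log2 change of 3.01 ± 0.209 (SE, edgeR adjusted p = 2.14e-21). Igfbp5 rose from 93.2 ± 9.68 to 156 ± 38.0 CPM (0.75 ± 0.09, adjusted p = 1.58e-10), and Il1a by 1.05 ± 0.25 (adjusted p = 0.000428) at a mean of 0.257 ± 0.104 CPM at 28 months. The gene lower was Il1b (-0.47 ± 0.229, adjusted p = 0.0907), a call at the threshold that was lost in edgeR without a filter (adjusted p = 0.144), with the covariates (0.125) and with only the mice of these ages (0.164). Il6, Cxcl1 and Cxcl2, which are often measured for this purpose, had at most 24 counts in any mouse and were not tested. Beside these changes, 4 of 5 macrophage markers were higher, with a summed level between 118 and 181 CPM at 3 months and between 110 and 275 at 28 months, and their part in the rise of the secreted factors was not tested.

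Other genes linked to senescence fell or did not pass the threshold, 5 of 10 lower and none higher, with a median of -0.091, beside 25.9% and 23.5% of all genes. Lamin B1, whose loss marks senescent cells, was lower (Lmnb1, -0.19 ± 0.054, edgeR adjusted p = 0.00265). So was Glb1, the gene of the enzyme behind the senescence-associated beta-galactosidase stain (-0.24 ± 0.04, adjusted p = 7.54e-07), and H2ax (-0.31 ± 0.063, adjusted p = 4.39e-05). Among receptors and ligands, Eda was higher (0.30 ± 0.128, adjusted p = 0.0544) and Edaradd, the adaptor of the related receptor Edar, lower (-0.68 ± 0.138, adjusted p = 3.66e-05). Eda was 0.15 with the covariates and lost its call there (edgeR adjusted p = 0.164) and with only the mice of these ages (0.119). Ret fell (-0.29 ± 0.11, adjusted p = 0.0291), Traf6 rose (0.15 ± 0.04, adjusted p = 0.00132), and Gfral had at most 5 counts in a mouse.

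**Figure D4:**
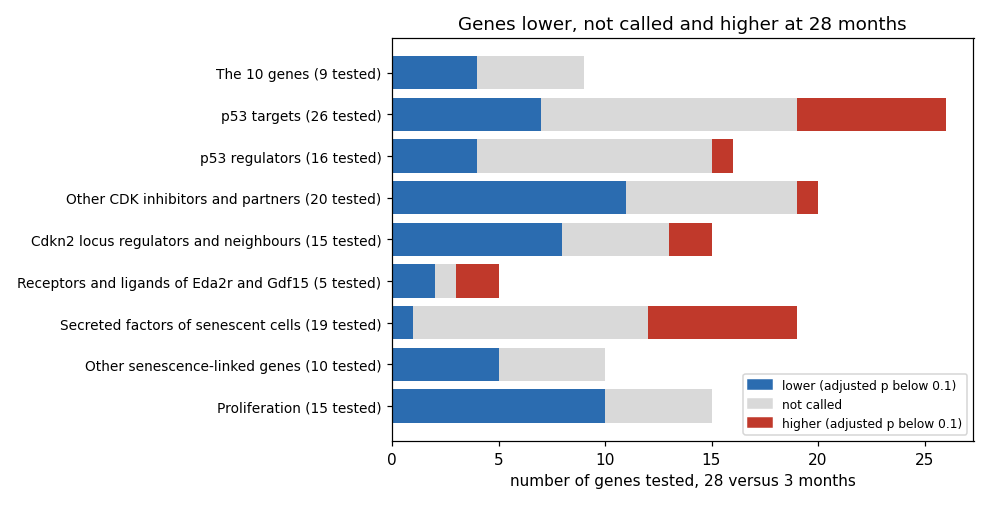
Number of genes tested in each group that were lower (blue), not called (grey) and higher (red) at 28 against 3 months at an adjusted p below 0.1. Proliferation genes have 10 lower genes, other CDK inhibitors and their partners 11, and the secreted factors have 7 higher genes.

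Some markers of other cells moved over the same interval, in which 25.9% of all genes were called lower and 23.5% higher. All 5 goblet cell markers were lower, with a summed level between 26750 and 37180 CPM at 3 months and between 21660 and 31870 at 28 months. Of the B cell markers 4 of 5 were lower (7.44 to 85.8 CPM and 6.73 to 29.1). All 5 endothelial markers (93.4 to 113 and 99.9 to 139 CPM) and all 4 mesothelial markers (1.29 to 5.94 and 2.67 to 13.7 CPM) were higher. None of the 5 smooth muscle markers was called, and their sum ranged from 736 to 4440 CPM at 3 months and from 2190 to 4053 at 28 months. Of the macrophage markers 4 of 5 were higher, with the sums given above. Of the epithelial markers 2 of 5 were lower, of the colonocyte markers 1 of 5 and of the plasma cell markers 1 of 5, and none of these was higher. Among the stem cell markers 1 was higher and 1 lower of 4 tested, and among the fibroblast markers 1 was higher and 2 lower of 5. A single marker each was higher for T cells (of 5), adipocytes (of 4), skeletal muscle (of 3 tested) and pancreatic acinar cells (of 1 tested), and no marker of enteric glia or enteric neurons was called. No marker list was at 0 in a mouse of either age. The part of these cells in the changes of the 10 genes was not tested. A fit with epithelial and smooth muscle scores as covariates leaves out the goblet, B cell, endothelial, mesothelial and macrophage markers. In that fit Cdkn2b changed by -0.39 (edgeR adjusted p = 4.79e-05) and Ccng1 by -0.14 (edgeR adjusted p = 0.0053). Cdkn2a, kept beside the filter, changed by 1.52 (edgeR adjusted p = 0.00171). Gdf15 (-0.21, edgeR adjusted p = 0.244) and Trp53 (-0.028, edgeR adjusted p = 0.47) lost their calls there.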

How the data were processed

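RNA was sequenced from the colon of 83 male mice at 5 ages. Adapters and poor bases were removed by the authors (cutadapt 2.8, PrinSeq Lite), Hisat2 2.1.0 placed the reads on GRCm38, SamTools 1.9 left unique alignments, and proper pairs were counted by strand with featureCounts (Subread 2.0.1). The authors deposited these counts as whole numbers for each gene and mouse, neither normalized nor pooled. Ages were taken from the labels, and no mouse was left out.

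Symbols, positions and merged exon lengths came from a GENCODE annotation of GRCm38 that is older than the one the study counted on and holds 37652 of the 37764 genes. The other 112 entered no TPM. Counts were filtered with filterByExpr by age, which kept 18325 genes, normalized with TMM and fitted with edgeR 4.0.16 in R 4.3.3, with age and library batch as factors over all mice. The study used DESeq2, which was run here as version 1.42.0 as an alternative. Calls are at a Benjamini-Hochberg adjusted p below 0.1 over all genes of a comparison, the study's threshold. Spread was tested with limma 3.58.1, and log2 CPM used a prior count of 2. Intervals of log2 changes are at 95%, from the SE. The scripts were checked on simulated counts.

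The 10 genes, the gene lists and the tests were chosen with earlier results of these data known. All 10 genes are named in the text, with the 3 genes outside the 10 most like each one that was tested and, from each list, at most the 3 largest called rises and the 3 largest called falls between 3 and 28 months. Of the genes chosen for likeness, 1 is not reported here. Of the marker lists, only counts and sums are given. Bisulfite data were not analysed here.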

Additional observations from a re-analysis of the deposited data

How the results depend on the processing

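Depth limits Cdkn2a, with 0 to 18 counts a mouse, and to a lesser degree Gdf15 and Eda2r. Between 3 and 28 months, Cdkn2b and Ccng1 were lower and past the threshold in all 43 alternatives tried, with log2 changes between -0.41 and -0.34 and between -0.16 and -0.11, Gdf15 in 42 of 43 and Trp53 in 19 of 43, of which 18 left out 1 mouse. These 43 include 34 fits without 1 mouse of 3 or 28 months, chosen after seeing the data, in which between 8585 and 9415 genes and 3 or 4 of the 9 genes were called. Cdkn2a was higher and past the threshold in all 6 alternatives that kept it, with log2 changes between 1.52 and 1.69, and these were also chosen after seeing the data. Of the 33 genes named from the gene lists, markers left out, none changed its direction between 3 and 28 months, and 252 of 262 values kept their side of the threshold. With epithelial and smooth muscle scores as covariates, the called markers of epithelium, T cells, plasma cells and pancreatic acinar cells lost their calls. So did the stem cell marker called higher, and that marker and the acinar marker also lost theirs without a filter.

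The number of the 9 genes called between 3 and 28 months was 2 with epithelial and smooth muscle scores as covariates, where 45.4% of all genes were called. For the slope it was 2 without a filter (28.6% of all genes), with the replicate block (49.9%), with those covariates (48.1%) and at an adjusted p below 0.05 (46.1%). For the departure from a straight line it was 0 without a filter (5.93%), with the block (14.5%) and at 0.05 (10.5%), and 3 with the covariates (23.3%). Over all genes, 882 were called between 3 and 9 months without a filter, 984 with only the mice of these ages and 759 at 0.05. Between 9 and 15 months 294 were called with the covariates and 125 in DESeq2. Between 15 and 24 months 1524 were called without a filter and 1380 at 0.05. At 0.05, 1302 were called between 24 and 28 months and 1926 for the departure. Spread between mice was called for 1556 genes when deviations were taken from the mean, none of them among the 9. The cause of these differences was not tested, beyond the stricter threshold itself.

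Results that changed sign were near 0 and were not called in either form. Between 3 and 28 months, Cdkn2c was -0.0048 with the covariates and between -0.0087 and 0.042 without 1 mouse. Eda2r was 0.0074 with DESeq2 size factors, 0.0038 without a filter, 0.0067 with at least 10 counts in every mouse, 0.0077 without a batch term, 0.032 with the replicate block, 0.0063 in DESeq2 and between -0.039 and 0.038 without 1 mouse. With the covariates, the slope of Cdkn1a was 0.0011, Trp53 between 3 and 9 months -0.0097, and Ccng1 and Eda2r between 24 and 28 months -0.022 and -0.015. Ccng1 in that step was -0.0055 without a batch term, and the slope of Eda2r was 0.00046 with the block. Cdkn2a between 15 and 24 months was -0.0021 when kept beside the filter, -0.0012 with DESeq2 size factors as well, -0.024 without a batch term and -0.056 with the covariates.

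The replicate numbers of the labels did not pair the mice. The median correlation of deviations between mice of the same number was 0.01, with 27 of 161 pairs over 0.1. With the replicate number as a block, 8626 genes and 3 of the 9 were called between 3 and 28 months. It also ended the calls of Cdkn1a over the 5 ages (edgeR adjusted p = 0.108) and for its departure from a straight line (0.151), of Trp53 between 3 and 28 months (0.122), of Il1b in that comparison (0.17) and of the slopes of Gdf15 (0.122) and Mdm2 (0.111).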
